A study of Mus musculus with 24 samples.

Results

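The genes described here are 34 genes of glycolysis and glycogen metabolism, listed by name and matched through Ensembl gene IDs to 35 of the 54752 gene rows in 3 deposited tables of read counts. The symbol Aldoa matches 2 IDs, and the enolases were left out. All 35 rows passed the filter on low counts in every comparison. The libraries are RNA sequencing of mouse gastrocnemius, the large calf muscle, and form 8 groups of 3. Tamoxifen-treated transgene females, vehicle-treated transgene females, tamoxifen-treated transgene males and vehicle-treated transgene males carried the HSA-MCM transgene. Tamoxifen-treated flox females, vehicle-treated flox females, tamoxifen-treated flox males and vehicle-treated flox males lacked it, and the titles call the flox males WT. All 8 groups carried floxed Numb and NumbL, the genes of endocytic adaptor proteins that regulate Notch signalling. HSA-MCM encodes a tamoxifen-dependent Cre, driven by human skeletal actin sequences that are read in muscle fibres, so recombination is aimed at the fibres and not at the other cells of the tissue. The labels used here state neither ages nor how much tamoxifen was given or when. They number the 3 libraries of a group separately without saying that each is 1 animal, so p-values measure the spread between libraries.

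Glycolysis splits glucose into pyruvate, which lactate dehydrogenase turns into lactate when energy demand outruns oxygen supply. Glycogen, the branched glucose store of muscle, is built by glycogen synthase and the branching enzyme and cut by glycogen phosphorylase, which phosphorylase kinase switches on when calcium rises. Fast fibres, which make up most of the mouse gastrocnemius, rely on both pathways for short bursts of force, and slow fibres rely more on oxidation.

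Library totals were 31219445 to 39142101 counts in the transgene female table, 36099031 to 43014516 in the flox female table and 21516819 to 29982077 in the male table. The tissue label was checked against 8 muscle fibre markers, which summed to 140000 to 294700 CPM (counts scaled for library size) per library, against 5.58 to 27.2 CPM for 4 leukocyte markers and 102 to 302 CPM for 7 adipocyte markers, of which Lep was at 0 in at least 1 library. Numb was at 18.6 to 19.0 CPM in tamoxifen and 20.7 to 23.3 CPM in vehicle transgene females, and at 17.5 to 20.4 CPM in tamoxifen and 18.1 to 20.6 CPM in vehicle transgene males. Numbl was at 3.76 to 5.12 CPM in tamoxifen and 2.66 to 3.79 CPM in vehicle transgene females, and at 3.17 to 4.72 CPM in tamoxifen and 2.83 to 3.19 CPM in vehicle transgene males. Flox females had Numb at 17.2 to 19.8 CPM after tamoxifen and 20.9 to 25 CPM after vehicle. Their Numbl stood at 3.38 to 4.04 CPM after tamoxifen and 2.77 to 2.94 CPM after vehicle. Flox males had Numb at 15.7 to 16.5 CPM after tamoxifen and 17.2 to 20.1 CPM after vehicle. Their Numbl stood at 5.14 to 6.5 CPM after tamoxifen and 3.49 to 4.28 CPM after vehicle. Neither gene passed the test in any of the 4 comparisons of tamoxifen with vehicle. Counts over a whole gene do not resolve deleted exons, so these values do not check recombination. The 3 vehicle libraries of transgene males are titled as vehicle controls while their treatment field reads tamoxifen, and they were grouped by title; each result in transgene males rests on that choice. The transgene females were deposited in 1 table, the flox females in another and all males in the last, so levels of these groups carry the table as well as the genotype or sex, and the 2 cannot be told apart.

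Per kilobase of exonic length, the most abundant of the genes was Aldoa, the muscle aldolase, with a median of 5508 CPM per kb over 24 libraries. Pygm, the muscle glycogen phosphorylase, had 2792 CPM per kb and Pgam2, the muscle phosphoglycerate mutase, 2161 CPM per kb. The least abundant was Pgm2, an enzyme related to phosphoglucomutase, with 0.735 CPM per kb. Where the list holds several genes for a step, their levels per kb lay far apart. Slc2a4, the insulin-responsive glucose transporter GLUT4, was 92.1 times as high as Slc2a1, the widely expressed transporter GLUT1. Hk2, the hexokinase of insulin-sensitive tissue, was 59.2 times as high as Hk1. Phkg1, the muscle catalytic subunit of phosphorylase kinase, was 51.2 times as high as Phkg2, the subunit known from liver. Ldha, the lactate dehydrogenase subunit of fast fibres, was 5.34 times as high as Ldhb, the subunit of heart and slow fibres. Among the subunits that tether protein phosphatase 1 to glycogen, Ppp1r3c stood at 151 CPM per kb, Ppp1r3a at 41.9 CPM per kb and Ppp1r3d at 1.88 CPM per kb. Exonic length joins all annotated exons of a gene, so it can exceed the length of each single transcript. It was 8532 bases for Hk1 and 4133 bases for Gapdh, whose longest protein-coding transcripts have 4278 and 1420 bases. Ranks and ratios per kb depend on that choice. Together the rows took 4.26% to 7.02% of a library's counts.

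**Figure D1:**
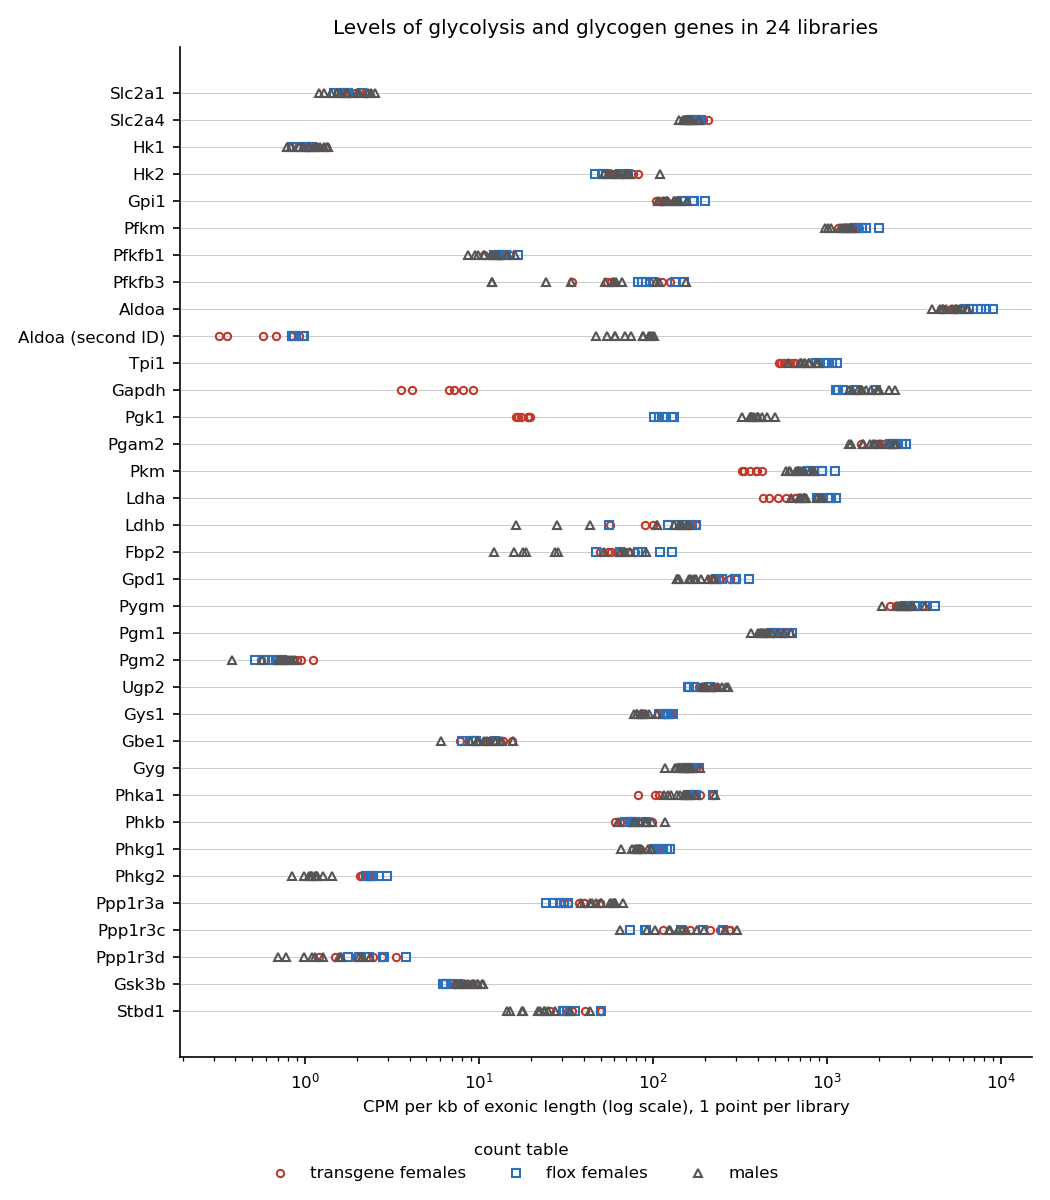
Levels of the 35 rows in CPM per kb of exonic length (x axis, log scale), 1 point per library, coloured by count table. Gapdh, Pgk1 and the second Aldoa ID separate by table, with table medians that differ 250-fold, 21.3-fold and 129-fold.

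Several levels depended on the count table. Gapdh, the glyceraldehyde-3-phosphate dehydrogenase, had 14.8 to 38.5 CPM in the transgene female table, 4654 to 7873 CPM in the flox female table and 5540 to 10120 CPM in the male table. The table medians differed 250-fold and their ranges did not overlap between the transgene females and the rest. Pgk1, the phosphoglycerate kinase, had medians of 41.1, 261 and 876 CPM in the same tables, and none of the 3 ranges overlapped. The second Aldoa ID, ENSMUSG00000114515, a gene model at chr7:126800790-126809108 just upstream of the main Aldoa gene on the same minus strand, had 0.257 to 0.79 CPM in female libraries and had 37.7 to 80.6 CPM in males. Over 2-fold differences between table medians were seen in 6 of the 34 rows that reached a median of 5 CPM in some table and in 10.6% of 9414 such genes of the tables. Over 4-fold differences were seen in 3 rows and in 4.16% of genes.

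Gapdh and Pgk1 were also the members that share most sequence with other genes. Of the 50-base stretches of their longest transcripts in the GENCODE annotation of GRCm38, 82.5% for Gapdh and 68.0% for Pgk1 recur in transcripts of other genes, and no other member exceeded 34.5%. The second Aldoa ID shares none. The coding sequence of Gapdh (chr6:125161715-125166467, minus strand, 1002 bases) is identical to a stretch of the processed pseudogene Gm7336 on chromosome 7. The 1253 coding bases of Pgk1 (chrX:106187100-106203699, plus strand) that lie within the processed pseudogene Pgk1-rs7 on chromosome 12 are identical as well. The first 90 of these shared coding bases, from base 1 in Gapdh and from base 2 to base 91 in Pgk1, are shown for each pair, in lower case throughout because no base of them differs between gene and pseudogene.

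Gapdh and Gm7336: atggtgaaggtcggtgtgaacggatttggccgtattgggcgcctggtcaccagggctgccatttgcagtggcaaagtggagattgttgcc

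Pgk1 and Pgk1-rs7: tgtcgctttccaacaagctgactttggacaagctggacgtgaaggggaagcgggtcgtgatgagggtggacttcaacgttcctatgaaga

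No label states how reads that match several places were counted, and the part of shared sequence in the table differences was not tested. Treatments were compared within a table, but the Gapdh and Pgk1 counts of transgene females are a small fraction of those elsewhere.

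**Figure D2:**
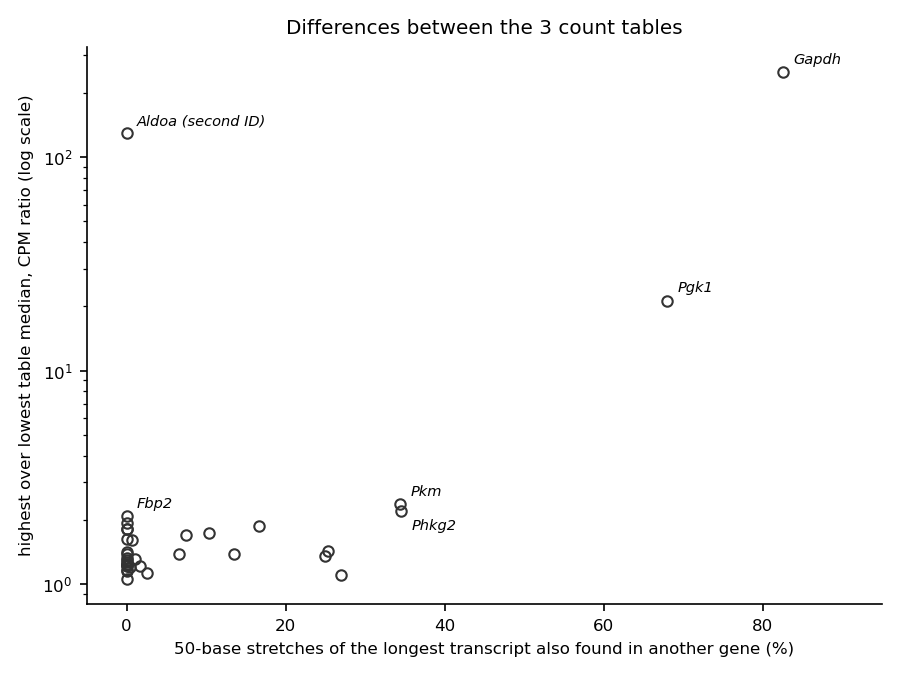
Share of 50-base stretches found in another gene's transcripts (x axis, percent) against the ratio of the highest to the lowest of the 3 table medians in CPM (y axis, log scale), 1 point per row. Gapdh lies at 82.5% and a 250-fold ratio and Pgk1 at 68.0% and 21.3-fold, while the second Aldoa ID lies at 0%.

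Tamoxifen was compared with vehicle in 4 strata of sex and genotype, with edgeR's quasi-likelihood test over all genes and Benjamini-Hochberg adjustment at 0.05. Tamoxifen is meant to delete Numb and Numbl in transgene animals, and flox animals received it without the recombinase. Fbp2 rose in both male strata, Stbd1 rose in transgene males, Ppp1r3d rose in flox males and Phka1 fell in transgene females. In transgene females 1 row was called, against 1.32% of 14211 genes, and it was lower, as were 0.704% of genes. In flox females 0 rows were called, against 0.131% of 14539 genes. At an unadjusted p under 0.05 there were 4 rows in flox females, against 8.65% of genes, and DESeq2 called 1 row, Fbp2, among 145 genes. In transgene males 2 rows were called, both higher, against 0.889% of 15628 genes in either direction and 0.512% higher. In flox males 2 rows were called, both higher, against 2.89% in either direction and 1.35% higher. The other 29 genes, with 30 rows, were called in none of the 9 comparisons of groups, and their lowest adjusted p was 0.0958. In bulk tissue a change in the number of cells of a type and a change in RNA per cell cannot be told apart.

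By role, the 4 genes of glucose uptake and phosphorylation (Slc2a1, Slc2a4, Hk1 and Hk2) gave 0 calls in the 4 strata, with log2 changes between -0.28 and 0.38. The 13 rows of glycolysis and lactate formation, from Gpi1 and Pfkm to Ldha and Ldhb with the regulators Pfkfb1 and Pfkfb3, also gave 0 calls. Of these, 3 lay above 0 in transgene females and 11 in flox females, while in males 8 did in transgene animals and 9 in flox animals. The 5 genes of glycogen breakdown (Pygm, Phka1, Phkb, Phkg1 and Phkg2) gave 1 lower call, in transgene females, where 4 of 5 lay below 0. In flox females 5 of 5 lay above 0, with small log2 changes of 0.027 to 0.139. The 6 genes of glycogen synthesis (Pgm1, Pgm2, Ugp2, Gys1, Gbe1 and Gyg) gave 0 calls, with a lowest adjusted p of 0.314. Among the 5 genes that regulate or anchor glycogen (Ppp1r3a, Ppp1r3c, Ppp1r3d, Gsk3b and Stbd1), 1 rose in each male stratum.

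**Figure D3:**
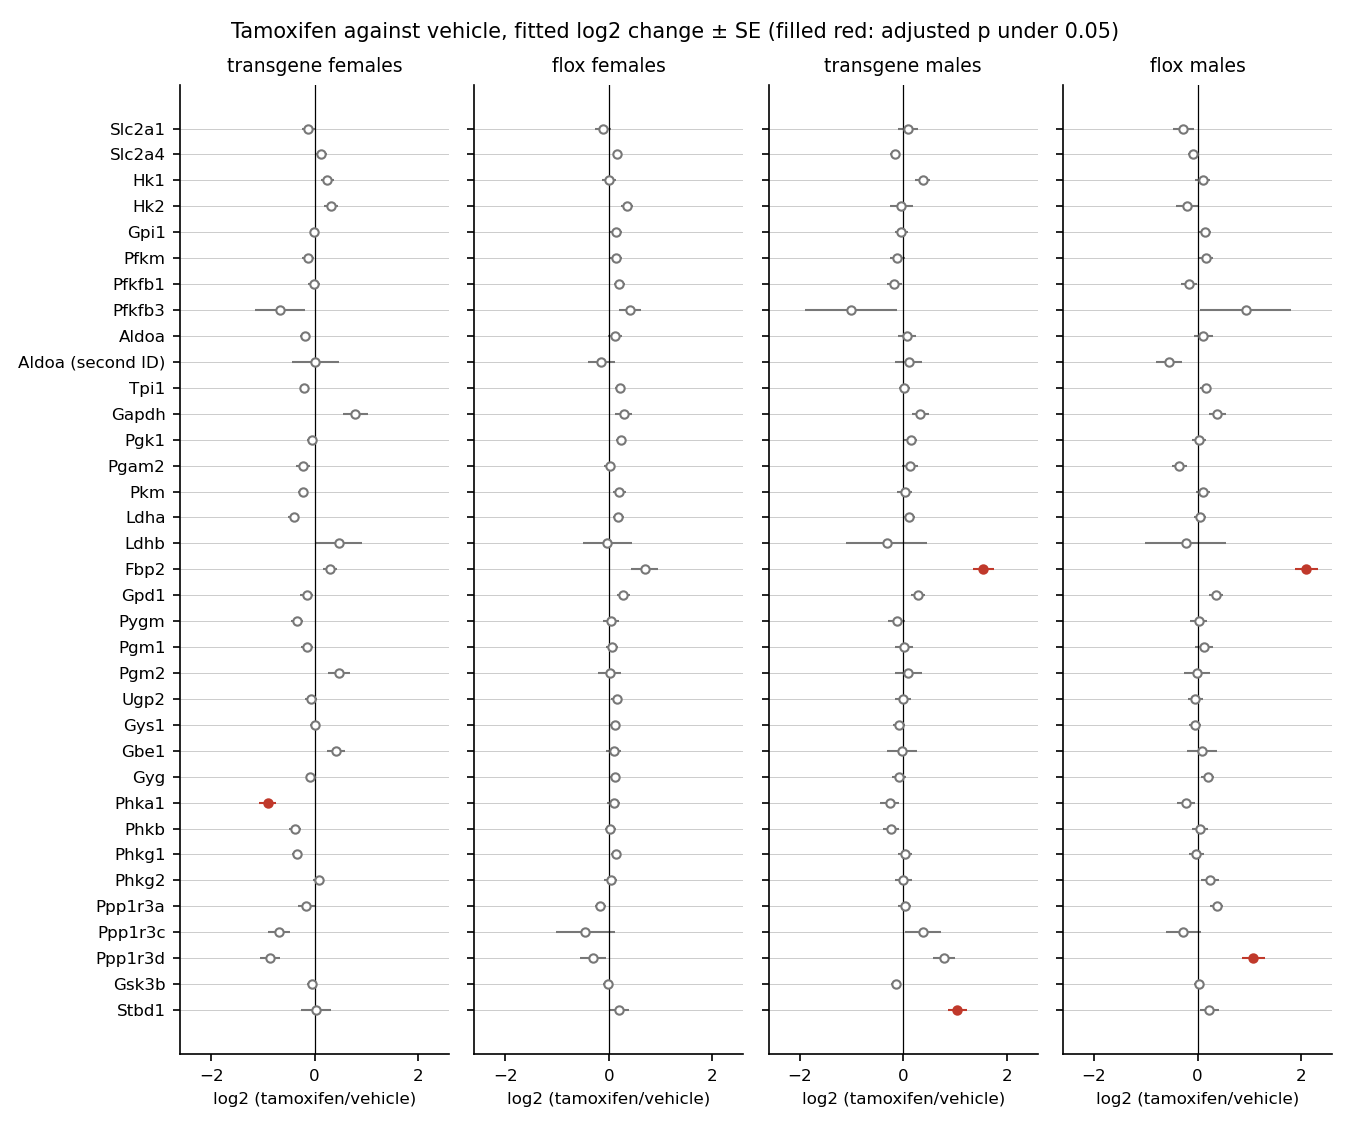
Fitted log2 change of tamoxifen over vehicle with its standard error (x axis) for the 35 rows in each stratum of sex and genotype. Filled red points passed an adjusted p of 0.05, and Fbp2 stands furthest from 0 at 1.55 in transgene males and 2.11 in flox males.

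Fbp2 (ENSMUSG00000021456, chr13:62836877-62858422, minus strand of GRCm38) encodes the muscle fructose-1,6-bisphosphatase, which runs the committed step of glycolysis backwards and serves glycogen resynthesis from lactate. In transgene males it had 77.3, 109 and 134 CPM after tamoxifen, against 27.6, 40.4 and 41.9 CPM after vehicle. In flox males it had 94.6, 102 and 95.8 CPM after tamoxifen, against 26.2, 18.0 and 23.4 CPM after vehicle. In both strata every tamoxifen library lay above every vehicle library. Fbp2 rose 2.93-fold in transgene males (log2 change 1.55 ± 0.21, SE, adjusted p = 0.00581) and 4.30-fold in flox males (2.11 ± 0.22, adjusted p = 0.000847). The difference between these responses, transgene minus flox, was -0.55 ± 0.29 with an adjusted p of 0.656. Fitted on the 6 transgene male libraries alone, Fbp2 had an adjusted p of 0.0807.

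In females Fbp2 did not pass the test, and vehicle libraries stood at 68.95 to 128 CPM in other tables than the 18.0 to 41.9 CPM of vehicle males. Transgene females had 81.2, 116 and 106 CPM after tamoxifen, against 91.1, 84.4 and 73.4 CPM after vehicle, and these ranges overlapped. Flox females had 188, 120 and 162 CPM after tamoxifen, against 95.05, 68.95 and 128 CPM after vehicle, and the lowest tamoxifen library lay below the highest vehicle library. The log2 changes were 0.30 ± 0.14 in transgene females and 0.69 ± 0.26 in flox females, with adjusted p of 0.333 and 0.542.

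**Figure D4:**
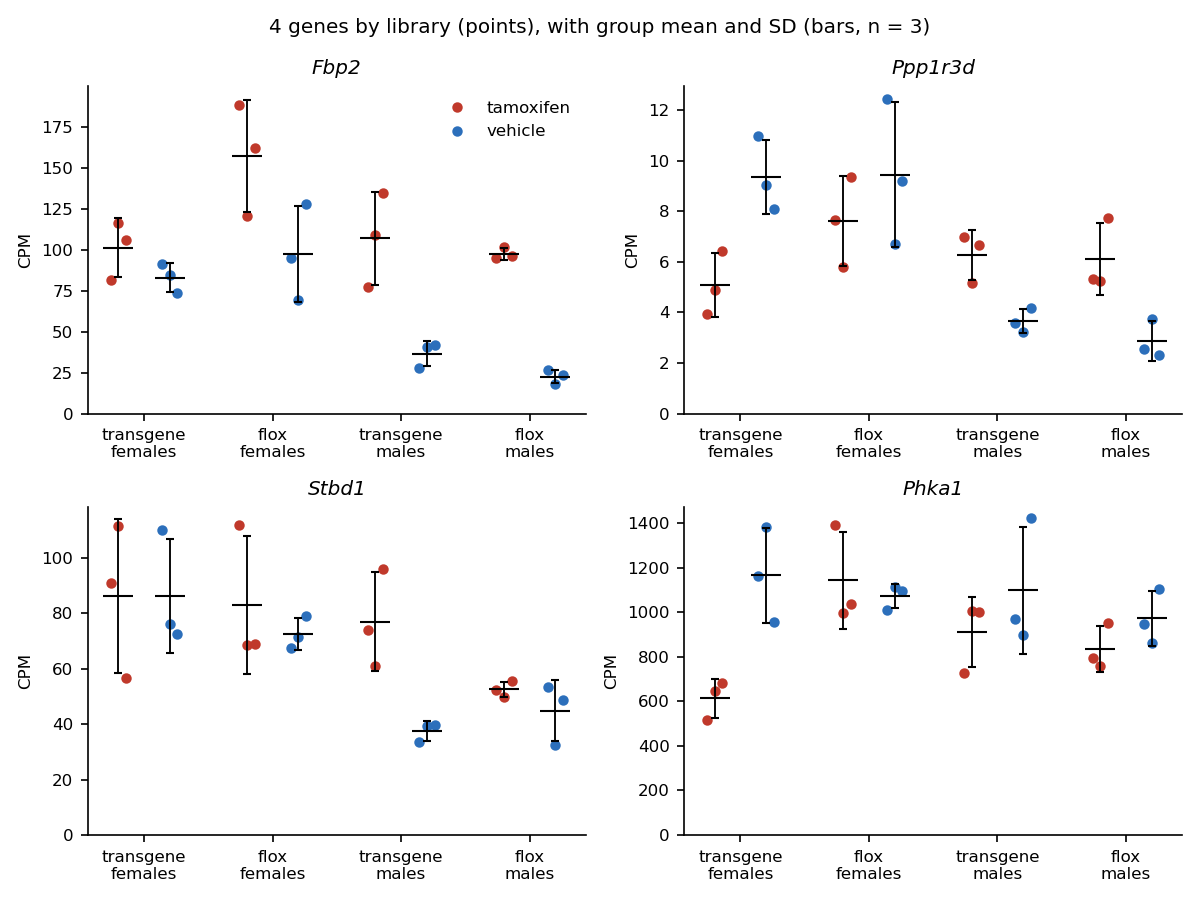
CPM (y axis) of Fbp2, Ppp1r3d, Stbd1 and Phka1 in each library, with tamoxifen in red and vehicle in blue for 4 strata; black bars give the mean and SD of 3 libraries. Fbp2 separates by treatment in both male strata, and Phka1 separates in transgene females, at 515 to 682 CPM after tamoxifen and 955 to 1381 CPM after vehicle.

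Ppp1r3d (ENSMUSG00000049999, chr2:178411206-178414472, minus strand) encodes a glycogen-targeting subunit of protein phosphatase 1, which dephosphorylates glycogen synthase and phosphorylase. In flox males it had 5.31, 5.26 and 7.74 CPM after tamoxifen, against 2.56, 3.75 and 2.30 CPM after vehicle, with no overlap. It rose 2.11-fold there (log2 change 1.08 ± 0.22, adjusted p = 0.0217). In transgene males it had 6.99, 5.16 and 6.66 CPM after tamoxifen, against 3.58, 3.23 and 4.18 CPM after vehicle, which did not overlap either, with a log2 change of 0.79 ± 0.22 and an adjusted p of 0.147. In transgene females the order was the opposite, with 3.94, 4.88 and 6.45 CPM after tamoxifen, against 10.97, 9.05 and 8.08 CPM after vehicle, and a log2 change of -0.87 ± 0.19 with an adjusted p of 0.0706. In flox females 7.67, 5.81 and 9.37 CPM after tamoxifen overlapped 12.4, 6.72 and 9.19 CPM after vehicle. The call in flox males was lost without its vehicle replicate 1 (adjusted p = 0.116), its vehicle replicate 3 (0.067) or its tamoxifen replicate 3 (0.12).

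Stbd1 (ENSMUSG00000047963, chr5:92603041-92606579, plus strand) encodes a starch-binding protein that anchors glycogen to membranes and takes part in its delivery to lysosomes. In transgene males it had 74.0, 60.9 and 96.1 CPM after tamoxifen, against 33.5, 39.5 and 39.6 CPM after vehicle. All tamoxifen libraries lay above all vehicle libraries, and Stbd1 rose 2.06-fold (log2 change 1.04 ± 0.19, adjusted p = 0.0264). In flox males 52.4, 49.98 and 55.5 CPM after tamoxifen overlapped 53.4, 32.4 and 48.6 CPM after vehicle, with a log2 change of 0.23 ± 0.18 and an adjusted p of 0.576. The difference between the responses, transgene minus flox, was 0.81 ± 0.26 with an adjusted p of 0.418 over all genes. The call was lost without any of the transgene male vehicle replicates 1, 2 and 3 (adjusted p = 0.114, 0.0717 and 0.0803) without the tamoxifen replicates 1 and 3 (0.0627 and 0.0823), and with the 6 transgene male libraries fitted alone (0.0717). The 5 fibroblast markers, all above 0 in every library, summed to 457 to 503 CPM in tamoxifen and 304 to 443 CPM in vehicle transgene males. In flox males they summed to 287 to 385 CPM after tamoxifen and 270 to 438 CPM after vehicle, which overlapped. In both male strata 0 of the 5 markers were called, and their part in the Stbd1 and Fbp2 results was not tested.

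Phka1 (ENSMUSG00000034055, chrX:102513975-102644246, minus strand), the muscle regulatory alpha subunit of phosphorylase kinase, fell in transgene females. It had 515, 645 and 682 CPM after tamoxifen, against 1163, 1381 and 955 CPM after vehicle. The groups did not overlap, and Phka1 was 1.88-fold lower (log2 change -0.91 ± 0.16, adjusted p = 0.0354). In flox females Phka1 had 1391, 998 and 1038 CPM after tamoxifen, against 1009, 1112 and 1096 CPM after vehicle, and the groups overlapped (log2 change 0.09 ± 0.13, adjusted p = 0.889). Leaving out any library of the transgene females but vehicle replicate 3 gave adjusted p from 0.0673 to 0.132, with log2 changes from -0.99 to -0.77.

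Other genes of glycogen breakdown and lower glycolysis were also lower in tamoxifen transgene females without passing the test. Phkg1 had 501, 546 and 539 CPM after tamoxifen, against 683, 704 and 650 CPM after vehicle (log2 change -0.35 ± 0.09, adjusted p = 0.0958). Phkb, the regulatory beta subunit, had 451, 502 and 483 CPM after tamoxifen, against 607, 733 and 543 CPM after vehicle (-0.38 ± 0.12, adjusted p = 0.164). Ldha had 1428, 1538 and 1729 CPM after tamoxifen, against 2195, 2157 and 1919 CPM after vehicle (-0.40 ± 0.11, adjusted p = 0.109). None of these 3 genes overlapped between the groups. In all, 10 of 35 rows (28.6%) had every tamoxifen library below every vehicle library, among them Aldoa, Tpi1, Pkm, Pygm and Ppp1r3c, against 13% of all genes tested. Gapdh was the single row with every tamoxifen library above, against 9.86% of genes. The median log2 change of the rows was -0.08, with 12 of 35 above 0, against a median of 0.01 and 52.3% above 0 over all genes. DESeq2 called 679 of the 14211 genes, against 187 in edgeR's test, and 7 rows among them, namely Gapdh higher and Ldha, Phka1, Phkg1, Ppp1r3c, Ppp1r3d and Pygm lower.

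RNA of slow fibre markers also varied from library to library in these females. Myh7, the slow myosin heavy chain, had 2605, 1086 and 2395 CPM in tamoxifen and 1076, 328 and 1728 CPM in vehicle transgene females. The 9 slow fibre markers, all above 0 in every library, summed to 3766 to 8009 CPM after tamoxifen and 1220 to 6459 CPM after vehicle. These ranges overlapped, and 0 of the 9 markers were called. With log2 Myh7 as a covariate, a choice made after the data were seen, the Phka1 change was -0.68 with an adjusted p of 0.0873. In that fit 0 rows were called among 93 genes, against 187 genes called without the covariate.

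In flox females 3 rows (Slc2a4, Hk2 and Pgk1), or 8.57%, had every tamoxifen library above every vehicle library, against 7.1% of genes. The median of the rows was 0.12, with 27 of 35 above 0, against 50.5% of all genes. In transgene males 4 rows (Hk1, Fbp2, Ppp1r3d and Stbd1) lay above, against 6.67% of genes, and 1 (Gsk3b, the kinase that inhibits glycogen synthase) lay below, against 6.9%. In flox males 7 rows (Gpi1, Gapdh, Fbp2, Gpd1, Pgm1, Ppp1r3a and Ppp1r3d) lay above, against 13.7% of genes, and 2 (Slc2a4 and the second Aldoa ID) lay below, against 14.1%.

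The difference between transgene and flox responses asks whether tamoxifen acts differently where the recombinase is present. In females 0 rows were called, against 0% of 15182 genes. There 8 rows, against 7.54% of genes, reached an unadjusted p under 0.05, all more negative in transgene females: Phka1, Phkg1, Ldha, Tpi1, Pkm, Phkb, Gpd1 and Pgk1. The difference was -1.002 ± 0.21 for Phka1 (adjusted p = 0.335), -0.49 ± 0.11 for Phkg1 (0.339) and -0.58 ± 0.14 for Ldha (0.339), and DESeq2 called these 3 among 45 genes. The median difference over the rows was -0.21, with 7 of 35 above 0, against 50.6% of all genes. Each response here comes from its own table, so an effect of genotype and one of table cannot be told apart. In males 0 rows were called, against 0.0128% of 15628 genes, 2 rows (Stbd1 and Pgam2) had an unadjusted p under 0.05, against 8.25% of genes, and DESeq2 called 0 rows.

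The transgene without tamoxifen was compared between vehicle-treated males. No row was called, against 0.947% of 15628 genes. At an unadjusted p under 0.05 there were 6 rows, a share close to the 17.2% of all genes. Among them Fbp2 was higher in transgene males at 27.6, 40.4 and 41.9 CPM, against 26.2, 18.0 and 23.4 CPM in flox males (log2 difference 0.69 ± 0.21, adjusted p = 0.136). DESeq2 called 2 rows among 601 genes, Fbp2 and Ppp1r3a, both higher. The tamoxifen responses of both male strata are measured from these same vehicle groups.

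Averaged over the 4 strata, tamoxifen changed 3 rows, against 8.83% of 16670 genes. Fbp2 and Gapdh rose, against 3.95% of genes that did, and Phka1 fell, against 4.88%. Fbp2 had a mean log2 change of 1.16 ± 0.12 (adjusted p = 5.04e-06), and the call held in all 29 alternatives run. Gapdh had 0.44 ± 0.10 (adjusted p = 0.00862). It had 7873, 5122 and 5971 CPM in tamoxifen and 4768, 4654 and 6154 CPM in vehicle flox females. It had 6498, 9437 and 10120 CPM in tamoxifen and 6261, 6595 and 7981 CPM in vehicle transgene males. The groups overlapped in both. It had 8212, 7403 and 8219 CPM in tamoxifen and 5725, 5540 and 6926 CPM in vehicle flox males. In transgene females the same gene had 29.6, 33.3 and 38.5 CPM after tamoxifen, against 14.8, 17.0 and 27.8 CPM after vehicle. In these 2 strata every tamoxifen library lay above every vehicle library. Without the transgene female table, Gapdh had a mean change of 0.34 with an adjusted p of 0.0741.

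Phka1 had a mean change of -0.33 ± 0.09 (adjusted p = 0.0218), and without the transgene female table the mean was -0.13 with an adjusted p of 0.571. Male Phka1 values overlapped in both strata, at 727, 1003 and 1001 CPM in tamoxifen and 971, 897 and 1424 CPM in vehicle transgene males, and at 792, 761 and 952 CPM in tamoxifen and 949, 861 and 1106 CPM in vehicle flox males. The call was also lost without tamoxifen transgene female replicate 1 (adjusted p = 0.0566) and with no filter on low counts (0.0664).

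The tamoxifen response of males was set against that of females, averaged over genotypes, in a comparison added after the data were seen. There 2 rows were called and both differences were positive, against 0.708% of 16670 genes in either direction and 0.372% in that direction. Ppp1r3d differed by 1.53 ± 0.24 on the log2 scale (adjusted p = 0.00312) and Fbp2 by 1.34 ± 0.24 (adjusted p = 0.00825). Both calls held in all 28 alternatives run, with Ppp1r3d between 1.40 and 1.65 and Fbp2 between 1.21 and 1.43. Because no table holds both sexes, sex and table cannot be told apart here.

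The windows around the transcription starts of Fbp2 and Ppp1r3d are shown because both genes rose in flox males, and those of Stbd1, Phka1 and Ldhb because the other results turn on them. Each runs from 250 bases before to 50 bases after the start in RefSeq on GRCm38.p6. Capitals mark the hypoxia response motifs ACGTG and GCGTG and the E-box CACGTG, searched on both strands. CACGTG holds ACGTG on each strand.

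Fbp2 chr13:62858351-62858650, minus strand: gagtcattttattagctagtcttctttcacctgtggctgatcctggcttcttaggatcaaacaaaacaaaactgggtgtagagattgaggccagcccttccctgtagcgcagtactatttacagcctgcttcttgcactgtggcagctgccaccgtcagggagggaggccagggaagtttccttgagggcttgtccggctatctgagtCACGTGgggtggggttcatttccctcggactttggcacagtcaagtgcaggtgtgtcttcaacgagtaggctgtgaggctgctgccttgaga

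Ppp1r3d chr2:178414414-178414713, minus strand: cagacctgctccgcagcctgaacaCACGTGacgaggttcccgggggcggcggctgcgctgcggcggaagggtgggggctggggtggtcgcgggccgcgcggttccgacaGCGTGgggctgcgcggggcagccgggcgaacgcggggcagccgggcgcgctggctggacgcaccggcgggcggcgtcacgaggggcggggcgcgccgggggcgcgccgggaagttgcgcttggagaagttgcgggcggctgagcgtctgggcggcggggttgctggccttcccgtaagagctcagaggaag

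Stbd1 chr5:92602801-92603100, plus strand: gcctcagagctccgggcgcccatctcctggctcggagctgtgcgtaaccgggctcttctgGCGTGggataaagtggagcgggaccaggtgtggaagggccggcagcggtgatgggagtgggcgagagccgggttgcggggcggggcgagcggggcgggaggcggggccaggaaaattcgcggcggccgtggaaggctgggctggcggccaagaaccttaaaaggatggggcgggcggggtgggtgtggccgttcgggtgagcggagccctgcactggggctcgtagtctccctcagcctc

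Phka1 chrX:102644197-102644496, minus strand: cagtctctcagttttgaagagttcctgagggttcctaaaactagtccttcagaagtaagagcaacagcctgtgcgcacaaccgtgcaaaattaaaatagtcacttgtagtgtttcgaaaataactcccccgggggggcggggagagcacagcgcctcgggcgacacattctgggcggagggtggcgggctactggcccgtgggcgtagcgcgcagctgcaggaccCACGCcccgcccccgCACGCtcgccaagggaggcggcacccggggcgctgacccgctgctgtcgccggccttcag

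Ldhb chr6:142507908-142508207, minus strand: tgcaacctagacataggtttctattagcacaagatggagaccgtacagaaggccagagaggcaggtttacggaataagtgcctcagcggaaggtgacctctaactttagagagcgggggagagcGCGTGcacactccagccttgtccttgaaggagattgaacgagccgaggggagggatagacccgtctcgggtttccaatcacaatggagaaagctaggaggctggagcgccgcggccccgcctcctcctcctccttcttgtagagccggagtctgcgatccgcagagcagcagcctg

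Fbp2 and Ppp1r3d each hold 1 CACGTG, near the start in Fbp2 and near the far end of the window in Ppp1r3d, and Ppp1r3d also holds 1 GCGTG. Stbd1 and Ldhb hold 1 GCGTG each and Phka1 holds 2. CACGTG occurs in 7 of the 45 windows that RefSeq gives for 32 of the genes (15.6%) and in 7.15% of 32851 windows of all genes. ACGTG or GCGTG occurs in 64.4% of the windows of these genes and in 43.8% of all windows. A match is a run of letters and not a measured binding site.

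Replicates of some groups differed in Myh7, most widely in transgene males, so the genes were also fitted against log2 Myh7 within groups. Slow fibre content itself was not measured. The slope is the log2 change of a gene per log2 unit of Myh7 CPM. Ldhb and Gbe1, the glycogen branching enzyme, rose with Myh7, and 8 rows fell with it: Aldoa, Pgk1, Gpd1, Pygm, Pgm1, Phka1, Phkb and Phkg1. These 10 of 35 rows compare with 6.62% of 16669 genes, of which 4.12% rose and 2.5% fell. The falling genes include glycogen phosphorylase and 3 of the 4 listed subunit genes of its kinase.

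Ldhb (ENSMUSG00000030246, chr6:142490249-142507957, minus strand) had 253, 67.9 and 25.5 CPM in tamoxifen and 166, 222 and 44.1 CPM in vehicle transgene males, where Myh7 stood at 754, 218 and 10.1 CPM and at 415, 919 and 63.1 CPM in the same libraries. In transgene females Ldhb had 278, 141 and 257 CPM after tamoxifen, against 157, 88.5 and 251 CPM after vehicle. The lowest Ldhb value of each of these 4 groups came from the library lowest in Myh7. In flox females it had 88.2, 262 and 276 CPM after tamoxifen, against 191, 236 and 213 CPM after vehicle. In flox males it had 206, 226 and 166 CPM after tamoxifen, against 222, 231 and 246 CPM after vehicle. The library lowest in Myh7 was the lowest in Ldhb in the 4 flox groups as well, and the treatment groups overlapped in all 4 strata. Myh7 varied little in most flox groups, so that order says little there. It had 659.3, 661.2 and 784.5 CPM in vehicle and 1011, 1102 and 838.5 CPM in tamoxifen flox males. Flox females had 1601, 1999 and 1679 CPM after vehicle and 614.7, 1678 and 1656 CPM after tamoxifen. The slope of Ldhb was 0.57 ± 0.05 (adjusted p = 1.38e-06), or 1.48-fold per doubling of Myh7. It was 0.76 in the 12 female libraries alone and 0.54 in the 12 male libraries alone, and the call held in all 30 alternatives run.

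Pgm1, the phosphoglucomutase that links glycogen to glycolysis, had a slope of -0.11 ± 0.02 (adjusted p = 0.00411) and Phkg1 one of -0.08 ± 0.02 (adjusted p = 0.00856). In transgene males Pgm1 had 1071, 1534 and 1658 CPM after tamoxifen and 1221, 1211 and 1809 CPM after vehicle, and the library lowest in Myh7 was the highest in Pgm1 in each group. Phkg1 had 428, 609 and 636 CPM after tamoxifen and 518, 496 and 635 CPM after vehicle, with the same libraries highest. In transgene females Pgm1 had 1270, 1419 and 1421 CPM after tamoxifen, against 1580, 1686 and 1317 CPM after vehicle, and the groups overlapped. Pgm1 had 1759, 1530 and 1577 CPM in tamoxifen and 1462, 1399 and 1835 CPM in vehicle flox females, and 1279, 1336 and 1389 CPM in tamoxifen and 1240, 1166 and 1259 CPM in vehicle flox males. Phkg1 had 817, 719 and 782 CPM in tamoxifen and 699, 661 and 745 CPM in vehicle flox females, and 522, 546 and 540 CPM in tamoxifen and 525, 556 and 542 CPM in vehicle flox males. The treatment groups of both genes overlapped in these flox strata, except for Pgm1 in flox males, where every tamoxifen library lay above. The library lowest in Myh7 was the highest in both genes in vehicle transgene females and tamoxifen flox females as well. That order failed for both genes in vehicle flox females and vehicle flox males. It also failed for Pgm1 in tamoxifen transgene females and for Phkg1 in tamoxifen flox males. These slopes lean on few libraries. Without tamoxifen transgene male replicate 1 only Ldhb was called, without vehicle transgene male replicate 3 Ldhb and Pgm1 were, and without vehicle transgene male replicate 2 or tamoxifen flox female replicate 1 there were 5 and 6 called rows. Among the 12 females 3 rows passed (Gbe1, Ldhb and Phkb), of 307 genes called, and among the 12 males 1 did (Ldhb), of 267 genes. The fit on all libraries called 1103 genes, and leaving out each library in turn gave 279 to 1829 genes, so calls over all genes shifted as well.

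**Figure D5:**
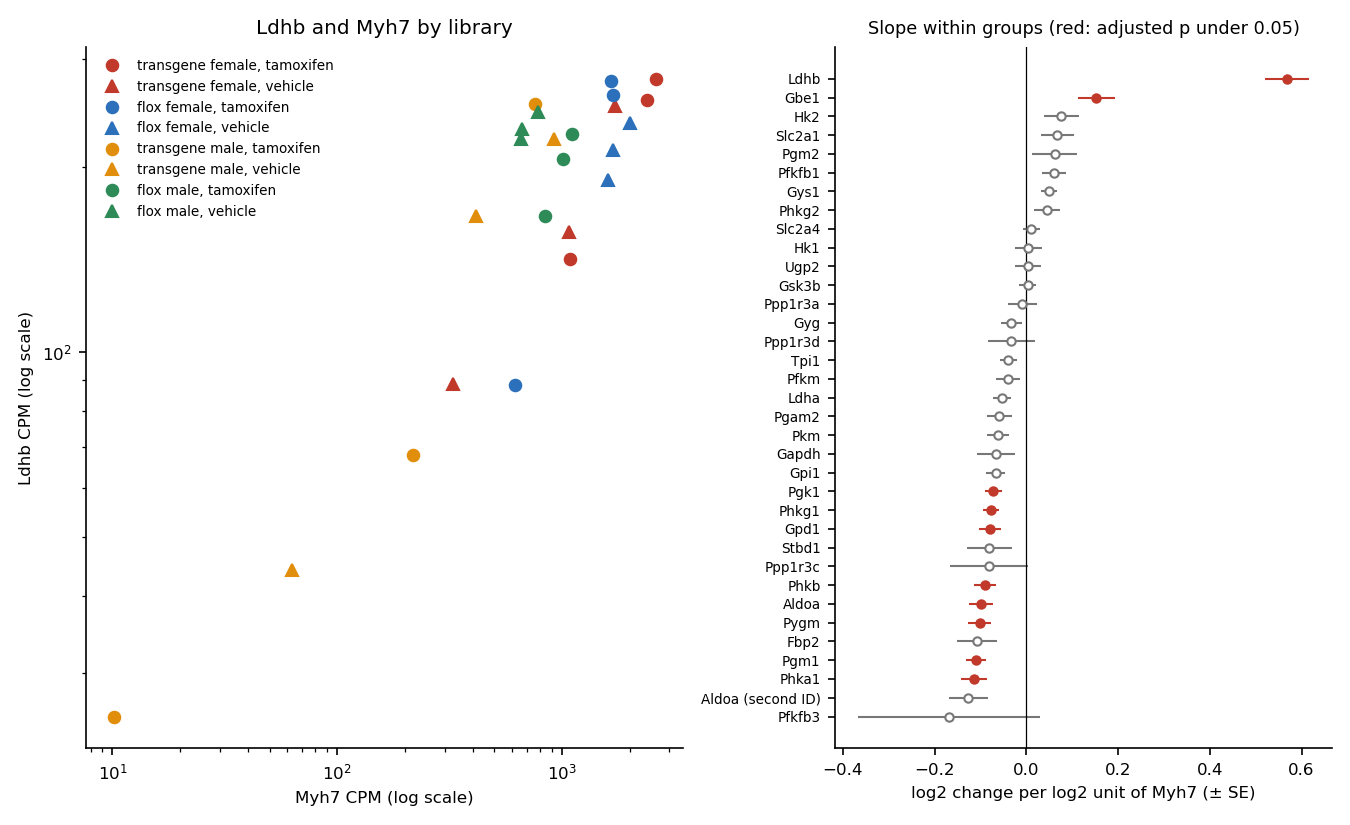
Left, Ldhb against Myh7 in CPM (both axes log scale) for 24 libraries, with tamoxifen as circles and vehicle as triangles. Right, the slope of each row on log2 Myh7 within groups with its standard error; Ldhb stands apart at 0.57 and called rows are red.

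Some genes varied widely between replicates of a group. Pfkfb3, which makes the fructose-2,6-bisphosphate that activates phosphofructokinase, ran from 89.9 to 1170 CPM over all libraries. In transgene males it had 90.2, 820 and 89.9 CPM after tamoxifen, against 400, 453 and 1170 CPM after vehicle, and in flox males 784, 505 and 444 CPM after tamoxifen, against 256, 465 and 184 CPM after vehicle. Its log2 changes there were -1.01 ± 0.88 and 0.93 ± 0.88, with 95% intervals of -2.74 to 0.73 and -0.80 to 2.66. The treatment groups overlapped in transgene males, and in flox males the lowest tamoxifen library lay below the highest vehicle library. Ppp1r3c, a subunit that favours glycogen storage, ran from 176 to 833 CPM and Hk2 from 277 to 655 CPM. By contrast Slc2a4 and Gyg, the glycogenin that primes glycogen, had coefficients of variation of 9.87% and 9.94% over the 24 libraries.

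Of 38 other genes of the pathway, 30 to 33 passed the filter on low counts, depending on the comparison. In flox males Gys2, the liver glycogen synthase, fell (log2 change -2.25, with means of 0.200 CPM after tamoxifen and 0.969 CPM after vehicle, adjusted p = 0.0422) and Pgm2l1, which makes glucose-1,6-bisphosphate, rose (0.57, adjusted p = 0.0433). The Gys2 call was lost in 7 of 16 alternatives, which include leaving out any flox male library, with adjusted p up to 0.189, and the Pgm2l1 call in 8 of 16, with adjusted p up to 0.2. Tigar, a fructose-2,6-bisphosphatase, had 96.2, 99.6 and 109 CPM in tamoxifen and 144, 160 and 136 CPM in vehicle transgene females and fell there (-0.52 ± 0.09, adjusted p = 0.0353). That call was lost in 6 of 10 alternatives, namely without any library of these females but vehicle replicate 3 and with the Myh7 covariate, with adjusted p up to 0.132. Averaged over the strata, Phka2, the liver alpha subunit of phosphorylase kinase, had a log2 change of 0.22 with an adjusted p of 0.0427, which was lost in 20 of 29 alternatives, with adjusted p up to 0.271. None of the 38 was called in flox females, between vehicle males or in a difference of responses. With Myh7, 3 of 33 rose and 6 fell, against 4.12% and 2.5% of all genes. The 4 with the smallest p were Gpd2, the mitochondrial glycerol-3-phosphate dehydrogenase (-0.15), Bsg, the chaperone of lactate transporters (-0.10), Pfkfb4 (-0.12) and Slc16a1, the lactate transporter MCT1 (0.19). Each of these 4 lost its call in 2 to 4 of 30 alternatives, among them leaving out tamoxifen transgene male replicate 1 for Gpd2, Bsg and Slc16a1 and vehicle transgene male replicate 3 for Pfkfb4 and Slc16a1.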

How the data were processed

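The 3 tables of read counts per Ensembl gene hold whole numbers that the authors deposited without normalization. The builds GRCm38 and mm10 and the tools featureCounts, STAR and limma are named per the submitters' processing notes, without versions or settings. Library totals of 21516819 to 43014516 counts set the counting precision. Groups follow the sample titles. CPM were scaled by TMM over the 24 libraries in edgeR 4.0.16 (R 4.3.3). Tests used edgeR's quasi-likelihood F test with robust dispersion after filterByExpr (minimum count 10, minimum total 15), with Benjamini-Hochberg adjustment over all genes at 0.05. Females were fitted per table (6 libraries each), males together (12), and the difference of female responses, the mean over strata, the male-female difference and the Myh7 slope on joined tables. A standard error is the size of the log2 change divided by the square root of F. Scripts were tested on simulated data.

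The members, lists and tests were chosen with earlier results of these data known. The male-female difference, the mean without the transgene female table, the Myh7 covariate and the slope without transgene males were added after the data were seen. The members called in a comparison of groups, and the 3 with the smallest p in the mean and in the slope, have their value in every library. Other pathway genes are named when called, at most 4 per comparison, except for results that are not reported here. DESeq2 1.42.0, RLE scaling, no filter and leaving out each library were the alternatives. Levels per kb use exonic lengths of GENCODE M21 on GRCm38. Strand use in counting is not stated, so counts of Gys1, Phkg1, Phkg2, Pkm, Gpi1 and Pgm1, whose exons overlap other genes, are uncertain, as are those of genes that share sequence with copies.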

Additional observations from a re-analysis of the deposited data

Results flagged for a closer look

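The tamoxifen responses of Fbp2 and Ppp1r3d differed between males and females in a test of the difference itself, added after the data were seen. The male minus female difference was 1.34 ± 0.24 (log2, SE) for Fbp2, which averaged 107 and 97.3 CPM in tamoxifen and 36.6 and 22.6 CPM in vehicle transgene and flox males. For Ppp1r3d it was 1.53 ± 0.24. The adjusted p in edgeR's quasi-likelihood test was 0.00825 for Fbp2 and 0.00312 for Ppp1r3d.

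For Ppp1r3d, all tamoxifen libraries lay above all vehicle libraries in transgene males and below them in transgene females, with fitted changes that differ by 1.65 on the log2 scale; this difference between transgene males and transgene females alone was not tested. Slc2a4 lay on opposite sides in flox males, at 516 to 537 CPM in tamoxifen and 546 to 571 CPM in vehicle libraries, and in flox females, at 629 to 657 CPM in tamoxifen and 564 to 607 CPM in vehicle libraries. The fitted changes differ by -0.24, males minus females, and this difference was not tested either. Sex and table cannot be told apart in any of these. Separation within a single stratum was common among all genes tested. There 6.67% lay above in transgene males and 13% below in transgene females, while 14.1% lay below in flox males and 7.1% above in flox females. The share of all genes that lay on opposite sides was not computed.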

How the results depend on the processing

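Of 769 single-gene values under the alternatives, 619 kept their direction and side of the threshold, 150 kept their direction and lost the call, and 0 reversed. A value that kept its direction but received no adjusted p was counted among the 619. All these values were called in the main fit, so none could gain a call. The number of genes called with no filter on low counts was 941 in transgene females and 329 in flox females, 221 in transgene males, 327 between vehicle males, 38 in the male and 20 in the female difference of responses. With DESeq2 it was 679, 145, 328, 601, 79 and 45 in the same order, and 871 in flox males and 312 in the male minus female difference. RLE scaling called 1 gene in the female difference of responses. Fitted on their own 6 libraries, transgene males gave 27 and flox males 917 genes. With Myh7 as a covariate transgene females gave 93 and the male minus female difference 184. The mean over 3 strata gave 806. The Myh7 slope gave 307 genes in females, 267 in males and 398 without transgene males.

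Rows called of the 35 were 5 with no filter, 7 with DESeq2 and 0 with the Myh7 covariate in transgene females. They were 1 with no filter (Pfkfb3) and 1 with DESeq2 (Fbp2) in flox females, 1 with no filter and 2 with DESeq2 between vehicle males, and 3 with DESeq2 in the female difference. They were 0 in 6 transgene male and 5 in 6 flox male libraries alone. The Myh7 slope gave 3 rows in females, 1 in males and 3 without transgene males.

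Leaving out each library in turn gave 37 to 215 genes and 0 to 2 rows in transgene females, 3 to 87 genes in flox females, 68 to 151 genes and 1 to 2 rows in transgene males, and 143 to 644 genes and 1 to 2 rows in flox males. It gave 44 to 204 genes between vehicle males, 2 to 8 and 0 to 2 in the male and female differences of responses, 82 to 209 in the male minus female difference, and 279 to 1829 genes and 1 to 13 rows in the slope. The causes of these shifts were not tested. With the replicate number as a replicate block in flox females, the only stratum whose groups share numbers, 15 genes (8 of them also among the 19 without it) and 0 rows were called. Same-numbered libraries correlated at -0.2, -0.033 and -0.101 in their deviations, so the numbers were not treated as pairs.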
